A study of Mus musculus with 2 samples.

Results

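The nuclear factor I family consists of the 4 mouse genes Nfia, Nfib, Nfic and Nfix, taken by name from the 21887 protein-coding genes placed on the nuclear chromosomes of mm10. Open chromatin at these genes was read from ATAC-seq of hepatic stellate cells, the pericytes of the liver sinusoid that store vitamin A. ATAC-seq uses the transposase Tn5 to put sequencing adapters into accessible DNA. The study deposited 2 peak lists, replicates A and B of 1 control group, so there was no comparison between conditions. Both came from healthy chow-fed mice of the strain C57BL6/JBomTac, and the labels used here give no age. Their genotype joins the ROSA26 allele Gt(ROSA)26Sortm1(mCherry-Rpl10a-Flop)Kra, which encodes a tagged ribosomal protein, with the transgene Tg(Lrat-cre)1Rshw on a B6.Cg background, and nuclei with mCherry-RPL10A were sorted. In that transgene the Lrat promoter drives Cre.

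For each gene, peaks were counted in the locus, which is the gene body with 20 kb on either side. Entries of A and B that share 1 bp or more are called replicated. The 4 loci held 57 of the 36577 entries of A and 45 of the 28794 entries of B, and 30 of these were replicated in each list. The members were chosen by their number of replicated peaks, known from these lists, so these counts describe the family and carry no test. Depth is unknown because the lists hold no read counts, and the labels do not say whether A and B are from different mice, so what differs between them may be technical. Peak names in B start with Oil, although the label gives chow and control, so values are given for each replicate as well as for the overlap. In sorted bulk nuclei, a site open in fewer nuclei and a site less open in each nucleus cannot be told apart.

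Nuclear factor I proteins are transcription factors that share a conserved amino-terminal part for DNA binding and dimerisation and differ more in their carboxy-terminal parts. Dimers bind a palindrome, which reads TTGGC, any 5 bases and GCCAA, and a single arm, TTGGC, is bound more weakly. Nfia is best known for the switch to glial fate in the developing nervous system, Nfib for lung maturation and brain development, Nfic for tooth root formation and Nfix for the fetal programme of skeletal muscle. In liver, binding sites for the family have long been described in the albumin promoter of hepatocytes. The stellate markers Lrat, Reln, Des and others had a replicated peak at the loci of 10 of 10 genes, with a median of 4. This was so for 1 of 6 hepatocyte, 1 of 6 Kupffer and myeloid, 1 of 6 cholangiocyte, 4 of 6 sinusoidal endothelial and 5 of 6 mesothelial and portal fibroblast markers. Over all protein-coding genes the share was 64.6% and the median 1, and the sinusoidal endothelial count is near that share.

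No peak was called in the promoter windows annotated for 3 of the 4 nuclear factor I genes. RefSeq promoter windows of the build GRCm38.p6, the assembly of mm10, run from 250 bases before to 50 bases after a start. Among the 4 genes, 3 were found there, with 6 windows: 1 for Nfia, 1 for Nfic and 4 for Nfix. None of the 6 was overlapped by an entry of A or of B. For all 3 genes the gene span reaches further upstream than these starts. The Nfix span reaches to 84801238, against 84780082 for the furthest upstream of its starts. A alone had an entry 0.721 kb inside that end of the Nfix span. Nfib, which has no window, had a replicated peak within 1 kb of its higher end. Of all 32851 windows 27.3% were overlapped by a replicated peak, and 40.6% of 17492 protein-coding genes had such a window. Of the 21 distinct windows in the 4 loci, 4 were overlapped, all of them at starts of other genes, and 2 of these belong to lncRNA genes that begin inside Nfia and Nfic. These 2 starts with a peak and 3 starts of the family with none called are printed 5′ to 3′ on the strand of each gene. A start without a called peak may still be accessible, since sites under the caller's threshold are not in the lists. Capitals mark each TTGGC arm or, for the opposite strand, GCCAA.
Gm19417, start inside Nfia, chr4:97868960-97869259, minus strand, overlapped in A and B: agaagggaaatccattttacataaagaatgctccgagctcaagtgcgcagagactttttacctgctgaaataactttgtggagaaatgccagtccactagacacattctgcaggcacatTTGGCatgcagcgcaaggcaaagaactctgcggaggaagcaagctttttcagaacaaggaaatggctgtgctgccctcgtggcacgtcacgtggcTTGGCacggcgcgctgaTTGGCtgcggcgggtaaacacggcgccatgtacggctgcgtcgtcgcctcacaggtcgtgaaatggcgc
Gm51811, start inside Nfic, chr10:81421771-81422070, plus strand, overlapped in A and B: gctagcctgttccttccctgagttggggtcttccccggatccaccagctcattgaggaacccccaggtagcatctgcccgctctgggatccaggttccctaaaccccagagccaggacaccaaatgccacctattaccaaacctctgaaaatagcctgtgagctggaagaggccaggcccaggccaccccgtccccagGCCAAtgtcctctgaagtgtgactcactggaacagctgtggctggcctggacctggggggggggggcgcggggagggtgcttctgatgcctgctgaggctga
Nfia, chr4:97581693-97581992, plus strand, no peak: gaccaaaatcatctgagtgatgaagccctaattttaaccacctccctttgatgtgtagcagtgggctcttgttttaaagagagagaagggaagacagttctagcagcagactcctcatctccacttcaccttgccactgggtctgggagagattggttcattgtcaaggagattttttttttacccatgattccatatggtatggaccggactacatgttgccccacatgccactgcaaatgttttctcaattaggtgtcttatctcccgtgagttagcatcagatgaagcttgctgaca
Nfic, chr10:81427124-81427423, minus strand, no peak: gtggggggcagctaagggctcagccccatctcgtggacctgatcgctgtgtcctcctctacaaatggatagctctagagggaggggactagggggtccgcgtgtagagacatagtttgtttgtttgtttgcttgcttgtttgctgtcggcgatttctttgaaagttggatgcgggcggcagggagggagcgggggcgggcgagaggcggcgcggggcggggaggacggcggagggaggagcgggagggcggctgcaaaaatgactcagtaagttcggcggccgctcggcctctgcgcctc
Nfix, the start nearest to a peak, chr8:84773361-84773660, minus strand, no peak: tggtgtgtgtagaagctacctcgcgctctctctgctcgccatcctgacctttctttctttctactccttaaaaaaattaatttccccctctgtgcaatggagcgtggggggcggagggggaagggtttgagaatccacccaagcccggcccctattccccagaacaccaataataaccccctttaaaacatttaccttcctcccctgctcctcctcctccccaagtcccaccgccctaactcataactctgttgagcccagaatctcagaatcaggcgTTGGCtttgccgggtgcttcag
The 5 windows were chosen after their values were seen.

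The window of Gm19417 holds 3 arms, which begin at positions 120, 215 and 232 counted from 1 at its 5′ end. All of them lie under the peak of A, and those at 215 and 232 also lie under the peak of B. The window of Gm51811 holds 1 arm, on the opposite strand at position 199, under the peaks of both replicates. The windows of Nfia and Nfic, with no peak called, hold none, and the Nfix window holds 1 at position 279, past the start. Of the Nfix windows that are not printed, that of the start at 84775828 holds 1 arm, that at 84772875 holds 2 and that at 84780082 none. Thus 3 of the 6 windows of the family hold an arm. No window in the 4 loci holds the full palindrome, searched on both strands, and 12 of the 32851 windows in the table (0.0365%) do. An arm alone is common: 12 of the 21 distinct windows in the loci hold at least 1 on either strand (57.1%), against 46.7% of all windows and 53.2% of the 8975 windows overlapped by a replicated peak. Those overlapped windows have a mean GC content of 62.4%, against 53.8% over all windows. Such matches describe letters in these windows and say nothing of binding.

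All 4 genes had at least 1 replicated peak in their locus, which 64.6% of protein-coding genes also had. Nfia had by far the most, with 15, all of them in the gene body. Nfic had 7, of which 4 lay in the body and 3 in the flanks. Nfib had 4, with 3 in the body, and Nfix had 4, with 2 in the body. Thus 24 of the 30 replicated peaks lay in a gene body, and each of the 4 genes had at least 1 there, against 48.7% of all protein-coding genes.

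**Figure D1:**
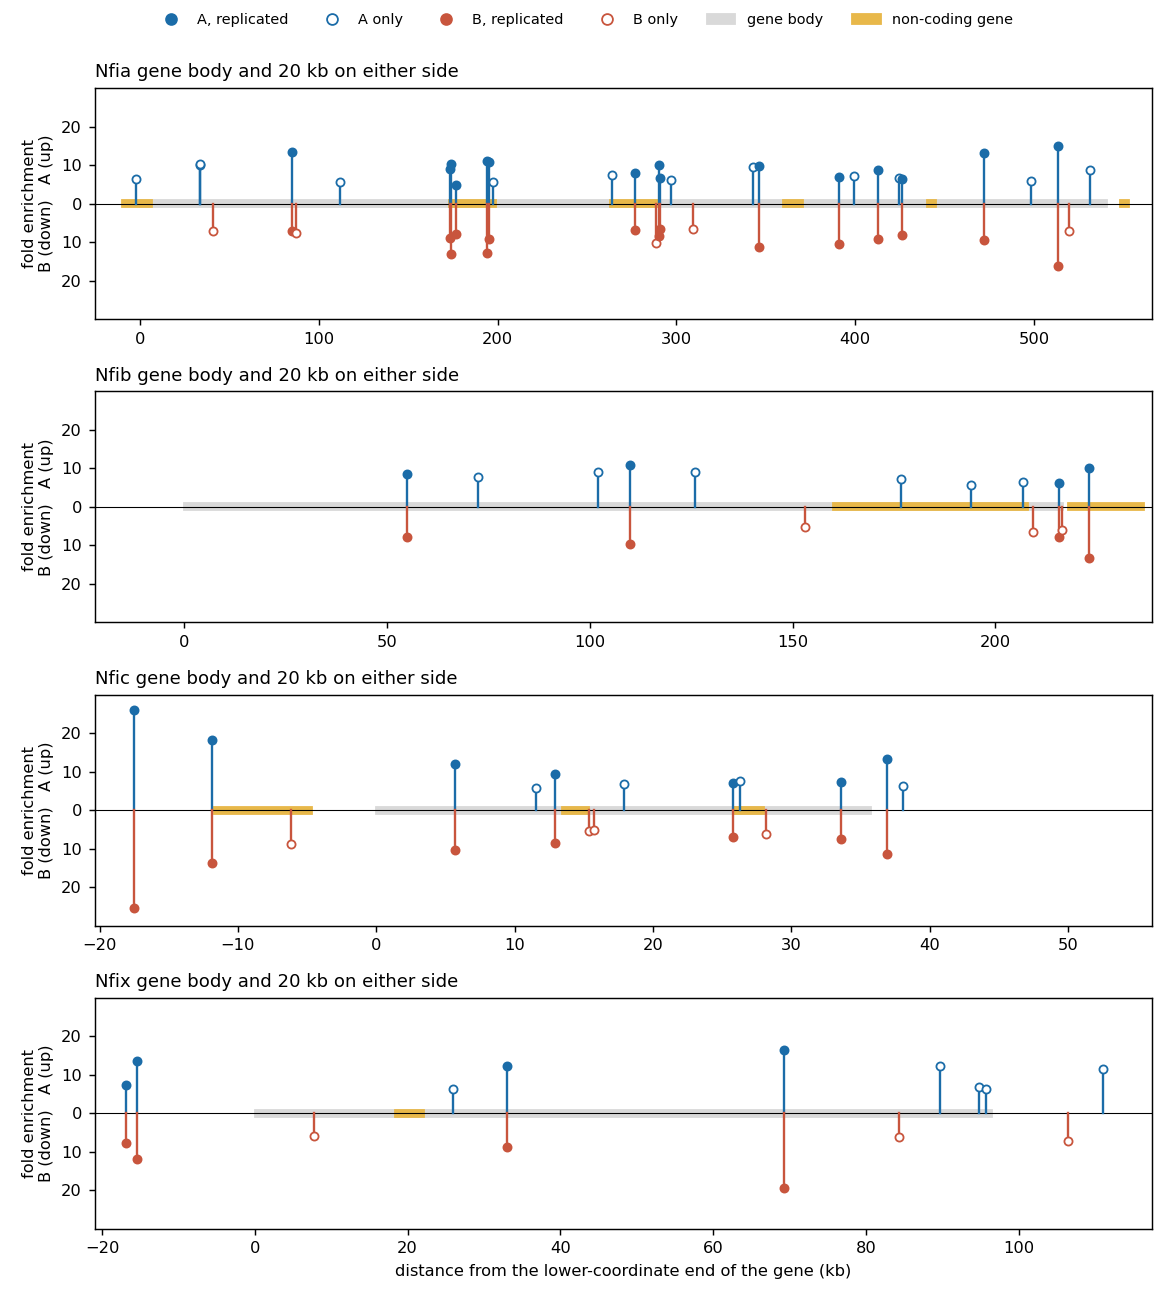
Peaks at the 4 loci, with fold enrichment over the local background drawn upward for replicate A and downward for replicate B against distance from the lower-coordinate end of each gene (kb). Filled points are replicated and open points were called in 1 replicate. Grey bars are gene bodies and yellow bars non-coding genes, and in the Nfia panel 8 of the 15 replicated peaks stand over 2 of the yellow bars.

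Nfia spans 541 kb, from 97578066 to 98118876 on chromosome 4. Replicate A had 27 entries in its locus and B had 20, and the 15 replicated ones are 2.77 per 100 kb of body. Only 0.0822% of protein-coding genes had at least 15. Among 600 other genes with a body from 0.5 to 2 times as long as that of Nfia, 11 (1.83%) had as many or more, and the median of such genes was 2. Counted with the entries of A alone, 11 of the 600 had as many as Nfia, and with B alone 8 did. Nfia thus stood near the top of genes of its length in either list.

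The strongest replicated peak at Nfia lay deep in the body, from 98091412 to 98091909, 27.0 kb from the higher end. Its fold enrichment, the value the authors' peak caller gave over the local background, was 15.0 in A and 16.3 in B, above 81.3% and 89.3% of the entries of each list. The weakest by the value of A, from 97754437 to 97754586, had 4.86 in A and 7.94 in B. Over the 15 peaks the fold enrichment ran from 4.86 to 15.0 in A, with a median of 9.67, and from 6.57 to 16.3 in B, with a median of 9.20. Over all replicated peaks the medians were higher, 11.9 in A and 10.4 in B, so at the median the Nfia peaks were weaker than replicated peaks as a whole. Of the 15, 7 were higher in A and 8 in B.

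The Nfia peaks were bunched. The median gap between neighbouring replicated peaks was 19.4 kb, yet 3 gaps were under 1500 bp and the longest was 87.9 kb. The lncRNA gene Gm38709, from 97750647 to 97777423, held 5 replicated peaks, and the lncRNA gene Gm19417, from 97840840 to 97869009, held 3. Together these 2 spans cover 54.9 kb, or 10.2% of the Nfia body, and hold 8 of its 15 replicated peaks. That is 14.6 per 100 kb inside them against 1.44 per 100 kb over the other 486 kb. Gm38709 and Gm19417 were singled out after these values were seen.

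Inside Gm38709 the peaks form a pair, a single peak and another pair. The first pair, at 97751080 to 97751367 and 97751765 to 97751961, had fold enrichments of 9.11 and 10.4 in A and of 8.98 and 13.1 in B. The other pair, at 97772162 to 97772459 and 97773190 to 97773500, had 11.0 and 10.9 in A and 12.8 and 9.23 in B. Both pairs were called at nearly the same place in the replicates, with summits from 0 to 29 bp apart. At Gm19417 the peak over its start, from 97868953 to 97869147, had 6.70 in A and 6.57 in B. Its neighbour 329 bp away, from 97868268 to 97868623, had 9.97 in A and 8.39 in B. The start was thus the weaker of these 2 sites in each replicate. An entry of B alone in Gm19417, from 97866566 to 97866746 with 10.2, was the strongest at the 4 loci that A lacked.

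The rest of the Nfia body held 7 replicated peaks. The one nearest the annotated start, from 97662914 to 97663139, lay 80971 bp from it and differed most between replicates of the 30 peaks, with 13.3 in A and 7.07 in B. The peak from 98049732 to 98050038 had 13.1 in A and 9.34 in B, and that from 97924022 to 97924272 had 9.67 in A and 11.2 in B. The other 4 had from 6.51 to 15.0 in A and from 8.22 to 16.3 in B. No replicated peak lay within 1 kb of either end of the gene. Near its lower end only A had an entry, 2.24 kb outside the gene with 6.37, over the lncRNA gene E130114P18Rik. A pair of A-only entries 33.3 and 33.6 kb into the body, with 10.1 and 10.3, had no counterpart in B.

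Nfic is the shortest of the 4, with a body of 35.7 kb from 81396191 to 81431919 on chromosome 10, and the most densely marked, with 11.2 replicated body peaks per 100 kb. Each replicate had 11 entries in the locus and 7 were replicated. Of all protein-coding genes 2.01% had at least 7, and among the genes of like length 86 of 7192 others (1.20%) had as many, where the median was 1. With each list alone 0.514% (A) and 0.125% (B) had as many as its 11 entries. In the body alone, 148 of these (2.06%) had as many as its 4.

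The 2 strongest peaks in the Nfic locus lay at starts of other genes. The peak from 81378420 to 81378879 had 25.9 in A and 25.5 in B and lay 17.3 kb outside Nfic at the start of Fzr1, which encodes an activator of the anaphase-promoting complex. Its rank was above 99.4% of the entries of A and 99.8% of those of B. The peak from 81384156 to 81384485 had 18.1 in A and 13.8 in B and covered the start shared by Dohh, which encodes a hydroxylase of the hypusine pathway, and the lncRNA gene Gm48551. Without the peaks at ends of other protein-coding genes, Nfic had 5 replicated peaks.

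Those 5 lay in or beside Nfic. The strongest, from 81432933 to 81433223, had 13.4 in A and 11.4 in B and lay 1.01 kb beyond the higher end of the gene, just outside the 1 kb that counts as a gene end. On the minus strand, to which the promoter table assigns Nfic, that end is the upstream side. The peak from 81401727 to 81402013 had 12.1 in A and 10.3 in B, and that from 81408921 to 81409285 had 9.31 and 8.63. The peak from 81429666 to 81429878, 2493 bp upstream of the Nfic start in the table, had 7.32 and 7.45. The peak over the start of Gm51811, from 81421897 to 81422055, had 7.13 and 7.10. The order of the 5 was the same in both replicates, and over the 7 peaks of the locus 6 were higher in A.

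Nfib spans 217 kb on chromosome 4, from 82290173 to 82506751, and was sparsely marked, with 1.39 replicated body peaks per 100 kb. Replicate A had 10 entries in the locus and B had 7, of which 4 were replicated, a number that 12.1% of protein-coding genes reach. Among genes of like length 512 of 1893 others (27.0%) had as many, and with each list alone 12.6% (A) and 16.5% (B) did. It was the only member with a replicated peak within 1 kb of an end of its own, which 41.9% of all protein-coding genes had. That peak, from 82505748 to 82505909 at the higher end, had 6.32 in A and 7.82 in B, and B alone had another entry 0.146 kb inside the same end, with 6.07. Nfib has no window in the promoter table.

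The other Nfib peaks were spread out, and gaps between neighbours ran from 7184 bp to 105 kb. The strongest in B, from 82513094 to 82513457, lay 6.34 kb beyond the higher end in the lncRNA gene Gm11266, with 10.2 in A and 13.2 in B. In the body, the peak from 82399809 to 82400393 had 10.9 in A and 9.77 in B, and that from 82344976 to 82345130 had 8.52 and 7.83. The former was 585 bp wide in A, the widest of the 30, and 195 bp in B. The non-coding gene 2310067E19Rik covers 22.2% of the Nfib body and held 3 entries of A and 0 of B.

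Nfix spans 96.5 kb on chromosome 8, from 84704712 to 84801238, with 2.07 replicated body peaks per 100 kb. Replicate A had 9 entries in its locus and B had 7, with 4 replicated. Of the genes of like length 725 of 4064 others (17.8%) had as many, and with each list alone 6.42% (A) and 6.74% (B) did. A single peak stood out in strength. From 84773865 to 84774174 in the body, it had 16.4 in A and 19.5 in B, above 85.9% and 96.1% of the entries of each list and the highest of any peak in a body of the 4 genes. It lay 455 bp upstream of the Nfix start at 84773410, whose window is printed, and 1654 bp downstream of the start at 84775828, and overlapped neither window.

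The other body peak of Nfix, from 84737658 to 84737893, had 12.2 in A and 8.80 in B. The remaining replicated peaks lay 15.4 and 16.7 kb below the gene, over Trmt1, which encodes a tRNA methyltransferase, and at an end of Nacc1. They had 13.5 and 7.37 in A and 11.8 and 7.73 in B. Near the higher end of Nfix, A alone had 3 entries, 6.77, 1.63 and 0.721 kb inside it. The first, with 12.3, was the strongest entry at the 4 loci that B lacked. An A-only entry of 11.6 lay in the flank at an end of Dand5.

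**Figure D2:**
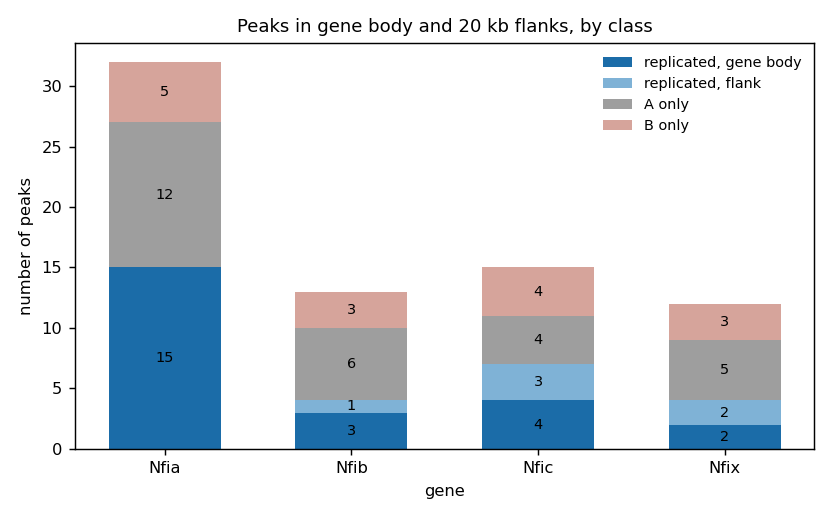
Number of peaks in the body and 20 kb flanks of each gene, stacked by class: replicated in the body, replicated in the flank, A only and B only. Nfia has 15 replicated peaks, all in the body, and the other 3 genes have 4 to 7.

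Entries at the 4 loci were replicated in smaller shares than those of the lists as a whole. Of the 57 entries of A, 52.6% were replicated (95% exact Clopper-Pearson interval 39.0% to 66.0%), against 64.1% of the whole list. Of the 45 of B, 66.7% were (51.0% to 80.0%), against 81.7%. The intervals cover counting error only, and since the members were chosen with these counts known, the shares are a description. By gene the share in A ran from 40.0% at Nfib to 63.6% at Nfic, and in B from 57.1% at Nfib and Nfix to 75.0% at Nfia, each on 7 to 27 entries. The entries called in 1 replicate were weak: the 27 of A had a median fold enrichment of 6.88 and the 15 of B one of 6.56, against 7.96 and 7.52 for such entries over the whole lists. The closest lay 290 bp from an entry of the other list. Sites under the caller's threshold in the other replicate are not in the lists.

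By the rule that defines them, the 30 replicated peaks overlap between A and B, which limits how far apart their summits can lie. Summits were a median of 16.5 bp apart, and 24 of 30 were within 50 bp, against 24.0 bp and 75.3% over all 23452 replicated peaks. The largest distance, 230 bp, was at the Nfia peak from 97854807 to 97855182, which also had the smallest overlap, 98 bp. In strength the median was 10.1 in A and 9.22 in B, against 11.9 and 10.4 over all replicated peaks. The ratio of A to B had a median of 1.02 and ran from 0.611 to 1.87, and 17 of 30 peaks were higher in A. Over all replicated peaks the median ratio was 1.11, with 66.3% higher in A. The lists are not scaled to each other, so these ratios describe likeness and not a change. Of the 30 peaks, 7 lay within 1 kb of an annotated start (23.3%), against 37.4% of the 22703 replicated peaks on chromosomes the table covers. Nfib has no window in the promoter table, so a peak near its own start could not be counted as such.

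**Figure D3:**
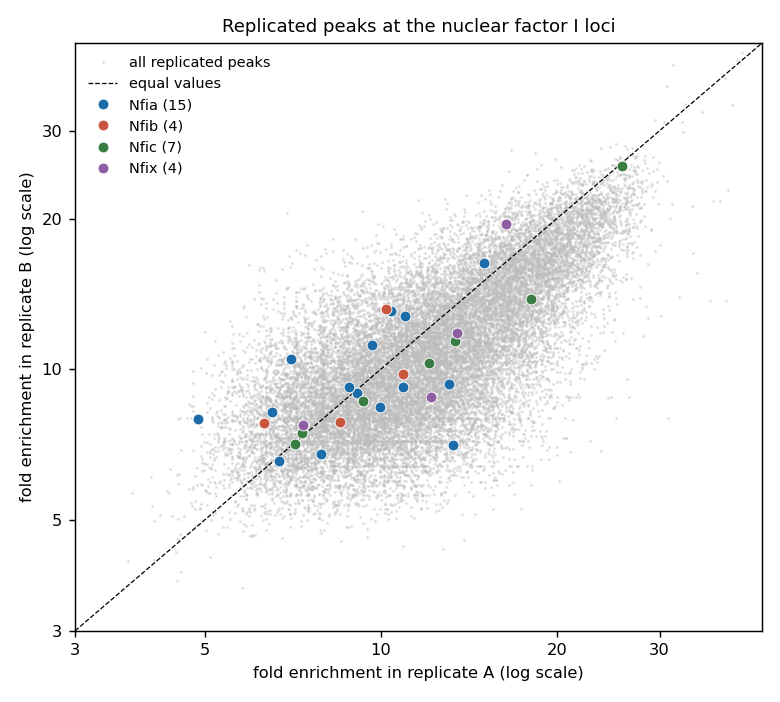
Fold enrichment of each replicated peak in A (x axis) against B (y axis), both on log scales, for all 23452 replicated peaks (grey) and the 30 at the 4 genes (coloured), with a dashed line of equal values. The coloured points lie on both sides of the line, with ratios of A to B from 0.611 to 1.87.

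Families of transcription factors known in stellate cells were set beside the 4 genes, whose median was 5.5 replicated peaks at a locus, where it was 1 over all protein-coding genes. The retinoic acid and retinoid X receptors, which read the vitamin A signal, had a median of 6.5 over 6 genes, from 0 at Rxrg to 10 at Rarb. The GATA factors had a median of 1 over 6 genes, with 8 at Gata4 and none at Gata2. For 6 Krüppel-like factors the median was 2.5, from 2 to 4, with the most at Klf9 and Klf10. Body lengths differ, and per 100 kb of body the order changed: 2.7 for nuclear factor I, 3.04 for the retinoid receptors, 6.19 for GATA and 13.1 for Krüppel-like factors. Rarb, nearest to Nfia in length at 651493 bp, had 10 replicated body peaks against 15. A replicated peak lay at an end of the gene itself in 1 of 4 nuclear factor I genes, 3 of 6 retinoid receptor genes, 2 of 6 GATA genes and 5 of 6 Krüppel-like factor genes, against 41.9% of all protein-coding genes. These are counts over few genes, and the differences between families were not tested.

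**Figure D4:**
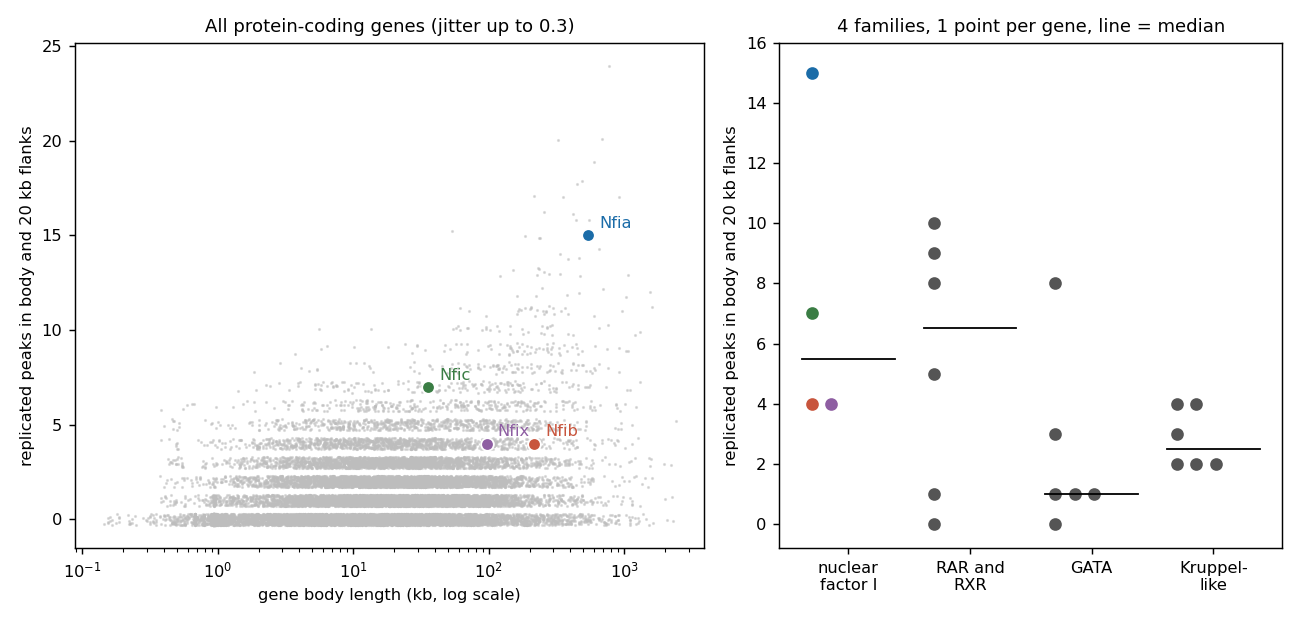
Left, replicated peaks per locus against gene body length (kb, log scale) for all protein-coding genes (grey) and the 4 members (coloured). Right, the same counts for 4 families, 1 point per gene with a line at the median. Nfia at 15 sits among the highest genes of its length, and Nfib and Nfix at 4 sit within the grey cloud.

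Genes with a pattern most like each member were sought among genes from 0.5 to 2 times its length, by the summed difference in 4 counts: replicated peaks in the body and in the flanks, and entries of A only and of B only. For Nfia these were Frmd4a and Pakap, each with a difference of 5, and Tshz2, with 6. Frmd4a had 19 replicated body peaks, Pakap 14 and Tshz2 15. For Nfib they were Svil, Megf11 and Hecw2, with a difference of 2 each. For Nfic they were Ston1, Slc1a7 and Speg, with 3, 4 and 4. For Nfix, C1qtnf7 and Pald1 matched all 4 counts and Mark1 differed by 2. The likeness rests on 2 libraries and on counts alone.

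Among 9 genes for proteins known to act with nuclear factor I at promoters, 7 had a replicated peak in the locus, where 64.6% of all protein-coding genes did, and the median was 3. On so few genes the count of 7 is near that share, and 12 of their 27 replicated peaks lay in the bodies. Ski, which encodes a nuclear repressor that binds nuclear factor I, had the most with 9, of which 4 lay in the body. Smarca4, which encodes an ATPase of the BAF remodelling complex, had 6, of which 2 lay in the body. The glucocorticoid receptor gene Nr3c1 had 3, all in the body. No replicated peak was found at Foxa1 or Sox9, of which Sox9 had 1 entry in A. Of 8 genes controlled by the family in glia, 5 had a replicated peak, which is near that background, and the median of 1 is that of all protein-coding genes. Zcchc24 had 10, with 6 in its body, and the other 7 had from 0 to 2. Gfap, the glial filament gene that is also used as a stellate cell marker, had 3 entries in A and 0 in B. Mmd2 had 1 in A and 0 in B, and Slc1a3 had no entry in either.

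The width of the flank mattered little at Nfia and more at Nfix. Just inside the 20 kb lay the Fzr1 peak, 17.3 kb from Nfic. Just outside, the next entries above Nfia lay 25.8 kb away, with 6.84 in A and 7.19 in B. Above Nfib they lay 24.1 kb away in A, with 11.0, and 24.2 kb away in B, with 11.9. At Nfix the nearest lay 39.3 kb above and 40.5 kb below the gene. With 50 kb on either side the counts were 17 for Nfia, 6 for Nfib, 9 for Nfic and 8 for Nfix.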

How the data were processed

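Per the labels' protocols, nuclei were freed by dounce homogenisation, cleaned on a density gradient and sorted, and libraries were made with Tn5. Of the tools, the submitters' processing notes list MACS2, HOMER, bedtools, Picard, SAMtools and STAR 2.7.0, without saying what each did, and the build mm10. Peaks were deposited as 1 list per sample. No source used here says whether reads were shifted for the Tn5 offset. The authors deposited for each peak a fold enrichment, a linear ratio over local background, a −log10 p and a −log10 q of the peak caller, a summit offset, and a score that follows the −log10 q. In A the −log10 q starts at 3.04 and in B at 3.00.

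Entries were overlapped with gene spans of a RefSeq table of GRCm38.p6 (pandas 2.3.3, numpy 2.4.6, scipy 1.17.1 and matplotlib 3.10.9 in Python 3.11.15). Coordinates are 1-based. The table gives no exons. All 4 members, and all genes of the compared families and lists, matched by symbol. The promoter table holds no window on chromosome 18. The functions were tested on simulated data. The members and the lists were chosen with earlier results of these data known. The genes named are the members, the neighbours that share their peaks, the 3 genes most alike per member, and those with the most or no replicated peaks in each list. Smarca4 and Nr3c1 are named beyond this rule and Lrat, Reln and Des as examples. Promoters were to be shown for members with a peak there, and since none had one, the choice was widened after the data were seen. Alternatives were each replicate alone, stricter overlap and thresholds, joined pieces, other flanks and the entries of B. Protein sequences were not used here. A further gene of the list of partner proteins is not reported here, and the counts of that list leave it out.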

Additional observations from a re-analysis of the deposited data

How the results depend on the processing

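The total of 30 replicated peaks at the 4 loci stayed within 1.5 times under reciprocal overlap (28), summits within 100 bp (28), joined pieces (30), no flank (24), a 50 kb flank (40) and counting the entries of B (30). It was 27 without peaks at ends of other protein-coding genes, an alternative chosen after seeing the data. With 1 replicate left out, and so with no overlap asked, it ran from 45 (B alone) to 57 (A alone). Stricter lists, which hold fewer entries, gave 17 with entries at or above the median −log10 q and 7 with the 10000 strongest entries of each list. With that median as the minimum, the replicated share at the 4 loci was 73.9% in A and 89.5% in B. The share over the whole lists at that minimum was not computed. These values therefore cannot be set against the 64.1% and 81.7% of the full lists. Nfia then had 7 replicated peaks, Nfib 2, Nfic 6 and Nfix 2. With the 10000 strongest they had 3, 0, 3 and 1. Of 600 genes of like length, 9 and 29 then had as many as Nfia. Over all members and alternatives, 27 of 44 counts stayed within 1.5 times and 17 did not, of which 9 were lower. No paired analysis was possible because there is only 1 group. The unknown depth limits every statement that an entry is missing from a list.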

Other observations

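A stretch without peaks lies next to Nfia. Between the last entry below the gene and the first at its locus, A had none over 984 kb and B none over 1027 kb, starting at 96591765 and 96591900 on chromosome 4. Of the 36556 gaps between neighbouring entries of A, 367 (1.00%) were as long, and of the 28773 of B, 369 (1.28%). The median gaps were 18.6 and 25.2 kb. These shares are of the number of gaps, and the length of genome that such long gaps cover was not computed. The stretch holds 2 protein-coding genes, Cyp2j5, a cytochrome P450 gene, and Gm12695. The 27 entries of A at Nfia thus begin at the edge of a region in which neither list has any. The stretch of B runs on to 97618645, inside the Nfia body, and the 20 entries of B begin there. This stretch was singled out after its values were seen.

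In the promoter table, the full palindrome was found in 1 of 8975 windows overlapped by a replicated peak (0.0111%, 95% exact interval 0.000282% to 0.0621%) and in 11 of 22203 windows with no entry of either list (0.0495%, 0.0247% to 0.0886%). The arm TTGGC, which the palindrome contains, was found in 53.2% and 44.1% of them. Mean GC content was 62.4% and 49.8%, and its part in these shares was not tested.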
